A study of Mus musculus with 18 samples.

Results

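The 18 arrays of this series, each hybridised with RNA of mouse hypothalamus, were ordered by their level of Ttr, and the 6 highest were set against the 6 lowest. Ttr encodes transthyretin, the carrier of thyroxine and of the retinol-binding protein, and in the brain it is made in bulk by the choroid plexus, the epithelium that secretes cerebrospinal fluid. The arrays were chosen by a measured value, so the level of Ttr itself is a description. The level used was the log2 value of the brightest probeset, which is also the single Ttr probeset with one gene symbol, and ties would have been broken by column order. The 12 arrays so chosen are compared over 19936 other genes, with and without the single highest array, and the 6 arrays between them enter no group. Because a measured level chose the arrays, the differences describe which genes moved with Ttr among these arrays and carry no test of a treatment.

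The mice were wild type or mutant for Wfs1, and their strain is named 129SV for the samples and 129S6 for the series. Treatment beyond dissection, age and sex are not given in the labels used here. Each array carries 2 genotype labels that often disagree, a genotype field (9 KO and 9 WT) and an ending of the title (10 ko and 8 wt), and arrays are named below by ending, field and a number, as in wt/WT 3. There are 5 arrays of ko/KO, 4 of wt/WT, 5 of ko/WT and 4 of wt/KO. Nothing in the labels ties an array to an animal, so p-values and spreads below are those between arrays and may be technical.

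The choroid plexus hangs into the ventricles beside and above the hypothalamus. Its epithelial cells pump ions and water into the ventricle and release carrier proteins and growth factors into the fluid. Kcnj13 and Kcne2, genes of an inwardly rectifying potassium channel and of a potassium channel beta subunit, mark these cells together with Ttr. In a bulk dissection, fewer cells of a type and less RNA per cell cannot be told apart.

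Ttr ran over a wide range. On the 6 high arrays the log2 level was 12.80 on wt/WT 3, 10.62 on wt/WT 1, 10.08 on ko/KO 2, 9.68 on ko/WT 4, 9.52 on ko/WT 1 and 9.48 on wt/WT 2. On the low arrays it was 8.50 on ko/KO 1, 8.43 on wt/KO 1, 8.35 on ko/KO 4, 8.31 on wt/KO 4, 8.15 on ko/KO 5 and 8.01 on wt/KO 2. The array wt/WT 3 stood well apart from the next, and the low arrays lay close together. The lowest member of the high group, at 9.48, had just outside it ko/WT 5 at 9.21, and the highest of the low group, at 8.50, had just outside it ko/KO 3 at 8.72. The means were 10.36 ± 1.27 (SD, n = 6) and 8.29 ± 0.18 (SD, n = 6), a difference of 2.07 that became 1.58 without wt/WT 3.

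**Figure D1:**
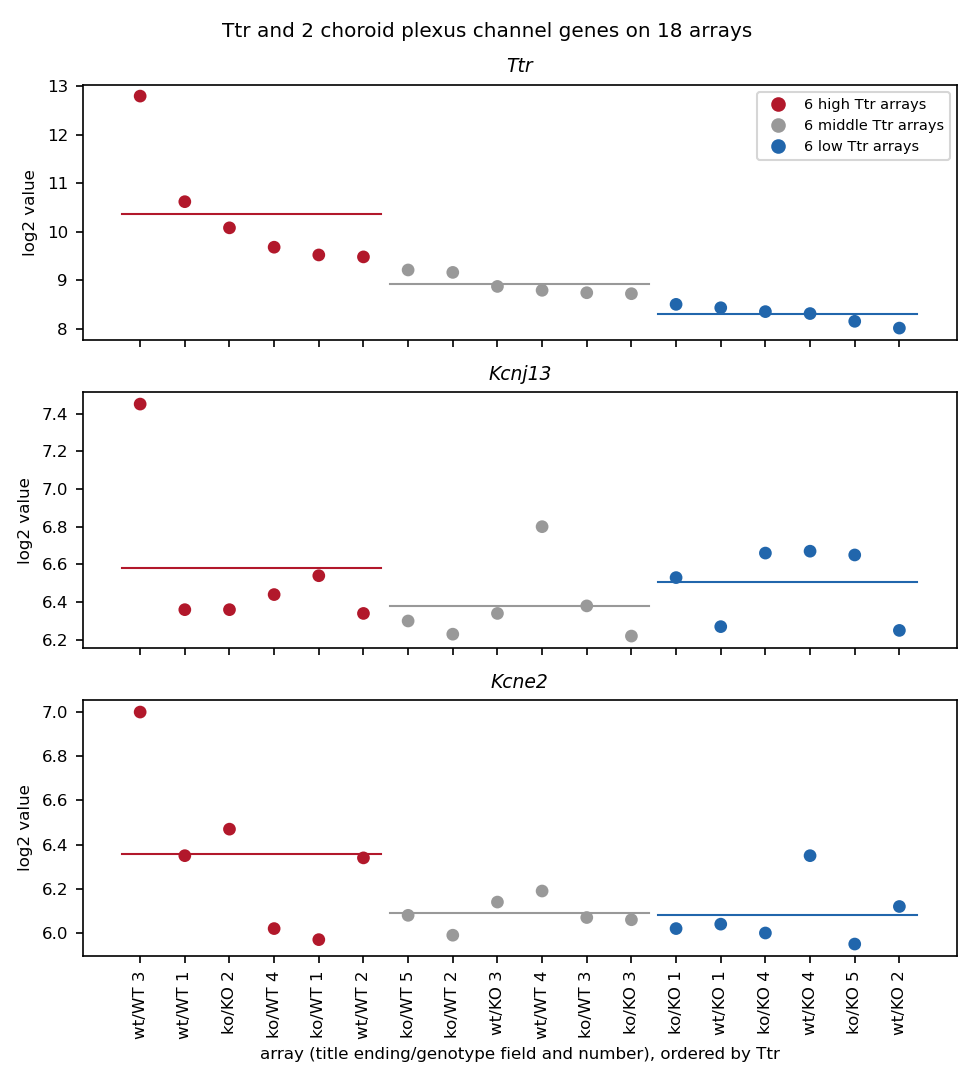
Log2 levels of Ttr, Kcnj13 and Kcne2 (y axes) on the 18 arrays in the order of Ttr (x axis), with a line at the mean of each set of 6 arrays. Kcnj13 at 7.45 and Kcne2 at 7.0 are highest on wt/WT 3, and on the other 17 arrays they lie between 6.22 and 6.80 and between 5.95 and 6.47.

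Of the channel genes, Kcnj13 did not follow Ttr beyond that first array, and Kcne2 was higher on some of the high arrays only. Kcnj13 ranged from 6.34 through a median of 6.40 to 7.45 on the high arrays and from 6.25 through 6.59 to 6.67 on the low arrays, so the groups overlapped and the median was the lower one on the high arrays. Its mean difference of 0.08 (SE 0.16, n = 6 and 6) became -0.10 (SE 0.089, n = 5 and 6) without wt/WT 3. Kcne2 ranged from 5.97 through 6.34 to 7.0 on the high arrays and from 5.95 through 6.03 to 6.35 on the low arrays. Its difference was 0.28 (SE 0.14) and 0.15 (SE 0.099) without wt/WT 3. On wt/WT 1, ko/KO 2 and wt/WT 2, Kcne2 was 6.35, 6.47 and 6.34, while on ko/WT 4 and ko/WT 1 it was 6.02 and 5.97. Among the low arrays it was 6.35 on wt/KO 4, where Kcnj13 was also highest of that group at 6.67, and between 5.95 and 6.12 on the other 5. So 3 of the high arrays after the first lay above 5 of the 6 low arrays in Kcne2, and the other 2 lay among them.

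The RefSeq promoters of these channel genes are shown because both transcripts were highest on the array that also had the most Ttr. Each line gives the 250 bases before the transcription start on build GRCm38.p6, 5′ to 3′ on the gene's strand, with capitals marking a TATA box (TATAAA), the one searched motif that occurred.
Kcnj13, chr1:87394730-87394979, minus strand: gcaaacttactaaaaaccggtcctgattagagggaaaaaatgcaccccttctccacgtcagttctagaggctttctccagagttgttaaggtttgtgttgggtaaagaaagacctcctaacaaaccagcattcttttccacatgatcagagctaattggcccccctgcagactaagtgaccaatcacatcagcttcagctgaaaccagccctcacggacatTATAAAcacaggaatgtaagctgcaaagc
Kcne2, chr16:92292139-92292388, plus strand: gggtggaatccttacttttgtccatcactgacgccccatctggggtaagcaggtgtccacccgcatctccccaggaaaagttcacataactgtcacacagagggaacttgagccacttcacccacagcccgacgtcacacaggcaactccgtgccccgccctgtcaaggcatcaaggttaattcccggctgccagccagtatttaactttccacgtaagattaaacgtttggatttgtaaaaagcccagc

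The Kcnj13 box began at position -29 from the start. Kcne2 has a second start in the table, whose window held none of the 4 motifs either. Searched on both strands were TAATCC (OTX-type homeodomain), TGTTTAC (forkhead), TAATTA (homeodomain) and TATAAA. The table held 66 such windows for 46 of the 58 measured choroid plexus genes other than Ttr. TAATCC occurred in 6.06% of them against 6.25% of all 32851 windows, TAATTA in 4.55% against 4.84%, TATAAA in 16.7% against 12.4% and TGTTTAC in 0 of 66 against 3.17% of all. A match is a run of letters in the window and no measured binding site.

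Choroid plexus genes were followed with 4 lists by role, of which 58 genes other than Ttr were measured by a single-gene probeset, out of 64 listed with Ttr. Between the 6 high and 6 low arrays, 37 were higher and 21 lower, with a median difference of 0.054, beside 56.6% higher and a median of 0.025 over all 19936 genes. None of the 58 had high and low arrays without overlap, where 0.988% of all genes did. Without wt/WT 3, 31 were higher and 27 lower, with a median of 0.026 beside 0.020 for all genes, and 6 members changed sign. With the SD of all values on an array as a term, described below with the brightness of genes, 43 of 58 were higher (median 0.061), and without the dimmest 40% of genes 15 of 34 were (median -0.024). On the list mean relative to each gene's mean over 18 arrays, wt/WT 3 was at 0.22 and the other 17 lay between -0.080 and 0.029. Both ends of that range were low arrays, and the lowest high array was at -0.016. The 5 remaining high arrays therefore lay within the range of the low arrays for this list. Within the arrays ending ko, which leave out wt/WT 3, the median was 0.013 between 3 and 3 arrays, and within those ending wt it was 0.077.

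Among secreted and carrier proteins, 9 of 11 measured genes were higher on the high arrays (median 0.18), and 7 of 11 without wt/WT 3 (median 0.13). With the genotype field as a term the median was 0.085. Only ko/KO 2 among the high arrays has the field KO, as all low arrays do. That fit therefore sets ko/KO 2 alone against the low arrays. The median was 0.023 over the 5 members left without the dimmest 40% of genes. The anti-ageing hormone precursor Kl ranged from 6.49 through 6.58 to 7.24 on the high arrays and from 6.30 through 6.42 to 6.54 on the low arrays, overlapping by a narrow margin. Its difference was 0.25 (SE 0.11), and 0.14 without wt/WT 3. The BMP and Wnt antagonist Sostdc1 differed by 0.17 and then 0.066, and coagulation factor V, F5, by 0.24 and then 0.16. The augurin gene Ecrg4 differed by 0.22 and 0.17, and the lipopolysaccharide-binding protein Lbp by 0.20 and 0.13. Insulin-like growth factor 2, Igf2, ran the other way, from 8.07 through 8.32 to 8.62 on the high arrays and from 8.21 through 8.94 to 9.11 on the low arrays. That is a difference of -0.44 (SE 0.14), and the meninges make Igf2 as well. The copper-carrying ferroxidase Cp differed by -0.37 (SE 0.11), from 7.34 through 7.83 to 8.05 against 7.94 through 8.17 to 8.41.

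The ion and water transport genes were split evenly, 8 higher and 8 lower of 16 (median 0.0067, and -0.035 without wt/WT 3). With the array spread as a term 13 of 16 were higher (median 0.094), and without the 3 arrays of smallest spread the median was 0.10. The median was -0.0375 with the genotype field as a term, again ko/KO 2 alone against the low arrays. Aqp1, the water channel of the apical membrane, had the largest difference in this list at 0.33 (SE 0.088), and 0.29 without wt/WT 3. Its level ran from 6.45 through 6.60 to 6.86 on the high arrays and from 6.11 through 6.29 to 6.55 on the low arrays, so the groups overlapped slightly. The sodium bicarbonate cotransporter Slc4a5 differed by 0.19 and the calcium-permeable channel Trpv4 by 0.19. Carbonic anhydrase 12, Car12, differed by 0.14 and by 0.042 without wt/WT 3. The intracellular chloride channel protein Clic6 differed by -0.093, the sulfate transporter Slc13a4 by -0.22 and carbonic anhydrase 2, Car2, by -0.16. Car2 is also an oligodendrocyte enzyme.

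Of 12 nutrient, vitamin and drug transporters and handling enzymes 7 were higher (median 0.025, and -0.0070 without wt/WT 3). Their median was -0.017 with the genotype field as a term. The folate receptor Folr1 differed by 0.18 (SE 0.089), the monocarboxylate transporter Slc16a8 by 0.26 (SE 0.094) and the organic anion transporter Slc22a8 by -0.20 (SE 0.10). Stra6, the receptor for retinol-binding protein, differed by 0.088 and the retinol dehydrogenase Rdh5 by 0.022. Of 19 junction, cytoskeleton, receptor and regulator genes 13 were higher (median 0.077, and 0.051 without wt/WT 3). With the genotype field as a term 9 of 19 were higher and the median was -0.020. Col9a3, a collagen chain, differed by 0.31 (SE 0.082) and the homeobox gene Msx1 by 0.23 (SE 0.094). The transcription factor Otx2, which choroid plexus development requires, differed by 0.13 (SE 0.11). The tight junction gene Cldn2 differed by 0.12 (SE 0.073) at a level of at most 5.63. The heparan sulfate 6-O-endosulfatase Sulf1 differed by -0.29 (SE 0.073).

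On wt/WT 3 itself many choroid plexus genes were at their highest. Of the 58, 20 (34.5%) had their highest value of the 18 arrays there, where 5.16% of all genes did. The excess over the median of the other 17 arrays was 1.09 for Kcnj13, 0.93 for Kcne2, 0.79 for Kl, 0.64 for Sostdc1, 0.61 for Car12, 0.57 for F5 and 0.52 for Igfbp2, an insulin-like growth factor binding protein, against 4.01 for Ttr. These 7 genes exceeded 0.5, which is 12.1% of the members, and 0.356% of all genes did. The members' median excess was 0.19, against 0.020 over all genes. The pituitary and median eminence list had a like share, with 4 of 11 genes highest there (36.4%), a median excess of 0.16 and an excess of 0.55 for the growth hormone gene Gh. By role, 7 of 11 secreted proteins, 5 of 16 ion transport genes, 2 of 12 nutrient transporters and 6 of 19 junction and regulator genes were highest there. This is 1 array, with no replicate.

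**Figure D2:**
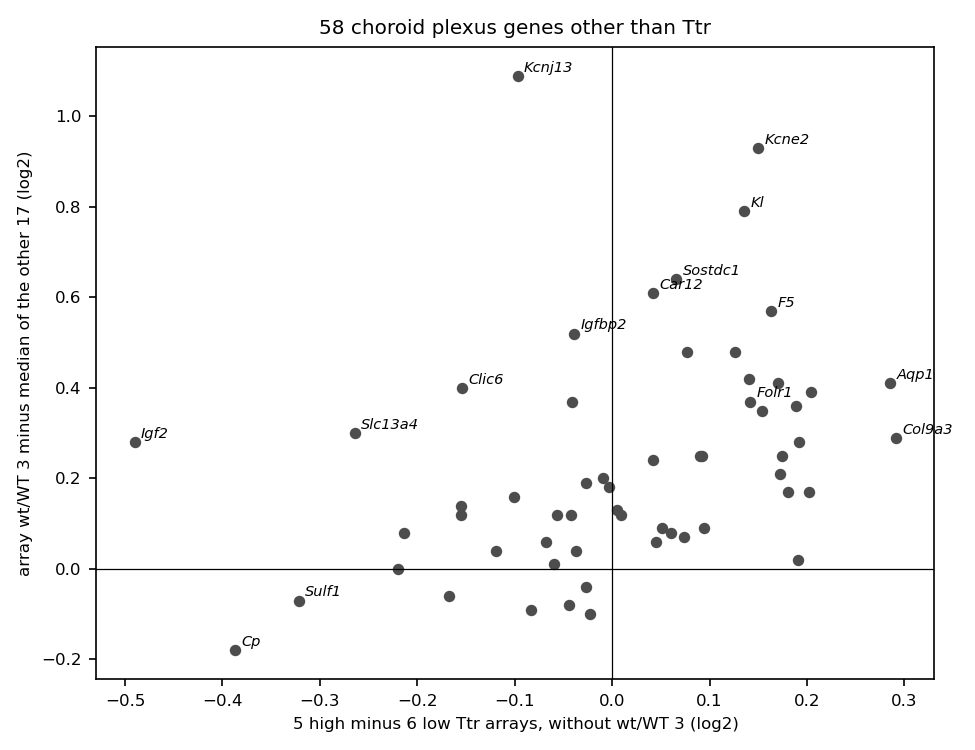
For 58 choroid plexus genes other than Ttr (points), the log2 excess on wt/WT 3 over the median of the other 17 arrays (y axis) against the difference between the 5 other high and the 6 low arrays (x axis). Kcnj13, at 1.09 and -0.10, and Kcne2, at 0.93 and 0.15, lie high on the y axis and near 0 on the x axis.

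Across all other genes, limma called none between the 6 high and 6 low arrays at a Benjamini-Hochberg adjusted p under 0.05 (lowest adjusted p = 0.103), and none in the 11 arrays without wt/WT 3 (lowest 0.109). An unadjusted p under 0.05 was reached by 4836 genes (24.3%), 2615 higher (13.1%) and 2221 lower (11.1%). Without wt/WT 3 it was reached by 4182 (21.0%), 2130 higher (10.7%) and 2052 lower (10.3%). The count of calls moved with single arrays and with the filter on dim genes. Limma called 2948 genes without wt/KO 4, 30 without ko/WT 4 and 2 without ko/WT 1. With all 12 arrays it called 66 without the dimmest 40% of genes. The groups did not overlap for 78 higher genes (0.391%) and 119 lower genes (0.597%), and these became 108 (0.542%) and 192 (0.963%), or 1.50% together, without wt/WT 3. A share chosen in this way is given as a background and nothing is read from it. Without wt/KO 4 the 197 genes became 1434, without ko/WT 4 they became 644, and without ko/WT 1 or wt/WT 2 301 and 304.

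These differences went with the brightness of the gene. Of the 4984 dimmest genes 87.3% were higher on the high arrays, with a median difference of 0.14, and of the 4984 brightest 26.7% were, with a median of -0.065. The 2 sets of equal size between them had medians of 0.075 and -0.027. The spread of all values on an array, as an SD, moved with them. It was 1.927 to 2.004 on the high arrays, with a median of 1.973, and 1.992 to 2.043 on the low arrays, with a median of 2.018. The smallest 3 of the series belonged to wt/WT 2, ko/KO 2 and wt/WT 1, all in the high group. With the spread as a term 1082 genes had an unadjusted p under 0.05, and without those 3 arrays 1894. With the spread as a term the dimmest and brightest sets had medians of 0.036 and -0.0084. After quantile normalization 72.0% of the dimmest and 44.3% of the brightest set were higher. Olfactory receptor genes, a family chosen after their values were seen and with a median level of 4.98 here, were higher for 958 of 1027.

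**Figure D3:**
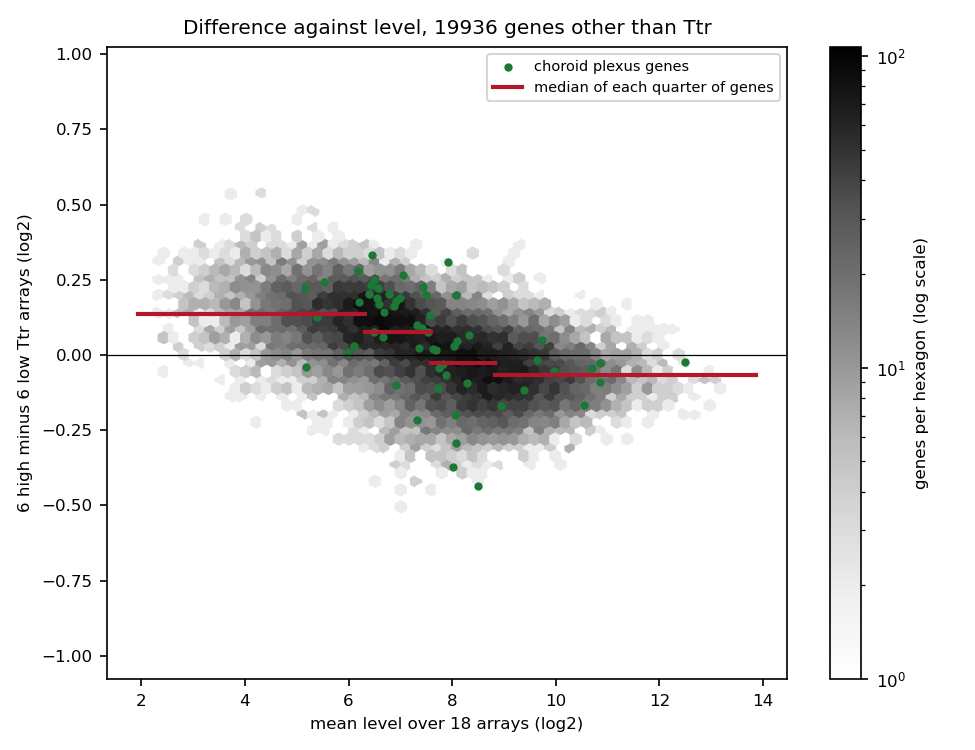
Difference between the 6 high and 6 low arrays (y axis, log2) against the mean level over 18 arrays (x axis, log2) for 19936 genes, shaded by genes per hexagon on a log scale. Red lines mark the median of each of 4 equal sets of genes, from 0.14 in the dimmest to -0.065 in the brightest, and green points the choroid plexus genes.

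Of the genes in no list, the 10 with the largest positive difference among those without overlap were mostly dim. For 9 of them the value stayed below the lower quartile of every array (5.81 at the lowest) on all 18 arrays. Fpr-rs7, of the formyl peptide receptor family, had 4.17 through 4.505 to 4.89 on the high arrays and 3.64 through 3.88 to 4.08 on the low arrays, a difference of 0.66 (SE 0.12). The others were the microRNA genes Mir363 (0.58), Mir203 (0.36) and Mir148a (0.35), Ms4a5 (0.53), Magea5 (0.52), the liver cytochrome gene Cyp2c29 (0.43), the pseudogene Ppp4r3c-ps (0.41), the gut lectin gene Reg3g (0.39) and the atrial myosin light chain gene Myl7 (0.38). With the array spread as a term they ranged from 0.20 to 0.42.

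The 10 with the largest negative difference were brighter genes. Pou3f2, a POU transcription factor of hypothalamic neuroendocrine neurons, had 7.91 through 7.98 to 8.28 on the high arrays and 8.29 through 8.45 to 9.04 on the low arrays, so the groups all but touched. The difference was -0.48 (SE 0.11). On the 6 middle arrays it ran from 7.88 through 8.14 to 8.75, across both groups. The rest were Ccn3 (-0.45), a matricellular protein gene, Thap2 (-0.45), Vwa5a (-0.44), Zcchc10 (-0.42), the axonemal dynein light chain gene Dnal1 (-0.42), the carbonic anhydrase related gene Car8 (-0.41), the interleukin 13 receptor gene Il13ra1 (-0.40), the cystine transporter gene Slc7a11 (-0.39) and Mctp1 (-0.38). For Car8 (SE 0.19) 1 low array stood apart, wt/KO 1 at 9.41, with the other low arrays at 7.99 to 8.12. With the array spread as a term these 10 genes ranged from -0.51 to -0.15, the latter for Car8 (SE 0.25).

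Meningeal and fibroblast genes were lower on the high arrays for 17 of 20 (median -0.15, and -0.14 without wt/WT 3), with 0 of 20 without overlap, beside 0.988% of all genes. With arrays ranked by Kcnj13 and Kcne2 in place of Ttr the median was 0.12, the other way. The small leucine-rich proteoglycan gene Ogn had 5.41 through 5.52 to 6.28 on the high arrays and 5.57 through 6.39 to 6.92 on the low arrays, a difference of -0.66 (SE 0.21). Decorin, Dcn, had 7.28 through 7.65 to 8.17 against 7.85 through 8.24 to 8.72, a difference of -0.62 (SE 0.17). The list mean, relative to each gene's mean over 18 arrays, ran from -0.19 to 0.062 on the high arrays and from -0.17 to 0.29 on the low arrays. With the array spread as a term 2 of 20 were higher and the median was -0.11, and without the 3 arrays of smallest spread it was -0.053. The meningeal list was at its highest on ko/KO 1.

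Transthyretin's ligands are thyroxine and, through its binding protein, retinol, so genes of their handling were followed. In this list 14 of 26 were higher and 12 lower (median 0.034), near the median of all genes. The largest differences were in the retinaldehyde dehydrogenases that make retinoic acid. Aldh1a2, which is also a meningeal gene, differed by -0.51 (SE 0.17), from 6.52 through 6.85 to 7.12 against 6.62 through 7.44 to 7.76. Aldh1a1 differed by -0.45 (SE 0.17), from 10.03 through 10.42 to 11.32 against 10.76 through 11.05 to 11.22. Both overlapped between the groups.

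Ependymal and tanycyte genes, from the cells that line the ventricle, were higher for 15 of 23 (median 0.038), with Scn7a at -0.44 (SE 0.10) and the orphan receptor Gpr50 at -0.29 (SE 0.11). Endothelial and mural genes were higher for 8 of 21 (median -0.090), with Itm2a at -0.23 and Vtn at -0.20. Astrocyte genes were lower for 13 of 15 (median -0.087), with the water channel Aqp4 at -0.27 and the filament protein Gfap at -0.24. Their median level was 10.5, among the brightest genes, and their median was -0.0023 with the array spread as a term. Without wt/WT 3 there were 2 astrocyte genes without overlap, both lower, of which Aqp4 is one, beside 0.963% of all genes lower in this way. Oligodendrocyte genes were lower for 12 of 17 (median -0.052), with Ermn at -0.29 and Ugt8a at -0.26, and general neuronal genes for 11 of 15 (median -0.063), with the vesicular glutamate transporter Slc17a7 at 0.36 and Map2 at -0.15. Once the array spread was a term, 9 of 17 oligodendrocyte genes (median 0.0028) and 9 of 15 neuronal genes (median 0.011) were higher. Both medians were then near 0, beside 0.0155 over all genes. Microglia and macrophage genes were lower for 11 of 15 (median -0.077), with Tyrobp at 0.20 and Aif1 at -0.16. The same term gave 8 of 15 higher (median 0.0050), and without the 3 arrays of smallest spread the median was -0.0083.

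Blood genes were higher for 6 of 8 (median 0.12), and for 4 of 8 with the array spread as a term (median -0.017). Only Alas2 is left of them without the dimmest 40% of genes. The neutrophil granule gene Ngp was the one member without overlap, from 5.36 through 5.66 to 5.85 against 4.81 through 5.24 to 5.33, a difference of 0.47 (SE 0.097), beside 0.391% of all genes higher without overlap, while the erythroid enzyme gene Alas2 differed by -0.42 (SE 0.27). All 11 measured pituitary and median eminence genes were higher (median 0.13, and 0.11 without wt/WT 3), with Gh at 0.27 (SE 0.14) and Pitx1 at 0.23 (SE 0.093). The pituitary list's median level was 6.39, in the dimmer range where most genes were higher, and with the array spread as a term 8 of 11 were higher, with a median of 0.048.

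Markers of neighbouring regions gave medians of different sizes, the largest for thalamic and epithalamic genes. Thalamic and epithalamic genes were higher for 16 of 21 (median 0.093, and 0.042 without wt/WT 3), with Ramp3 at 0.33 (SE 0.10) and the habenular receptor Gpr151 at 0.38 (SE 0.35). Adding the array spread as a term, 17 of 21 were higher (median 0.20). With arrays ranked by Kcnj13 and Kcne2 in place of Ttr, 4 of 21 were higher (median -0.088), the other way. Within the arrays ending ko their median was -0.010 and within those ending wt 0.15. Hypothalamic regional transcription factors were higher for 18 of 27 (median 0.030), with Sim1 at -0.25 and Fezf1 at -0.24. Hypothalamic neuropeptides were higher for 12 of 30 (median -0.037), with the tachykinin precursor Tac1 at -0.37 (SE 0.089) and somatostatin, Sst, at -0.25 (SE 0.081). The direction of this list did not hold. Its median was 0.077 with the genotype field as a term, 0.0 with 9 against 9 arrays and 0.022 with 3 against 3. Once wt/WT 3 was left out, Sst was the 1 neuropeptide of 30 without overlap, beside 0.963% of all genes lower in this way. Cortical, hippocampal and striatal genes were higher for 10 of 18 (median 0.022), with Neurod1 at -0.40 (SE 0.25) and Tac1, a member of this list too. Immediate early genes were higher for 8 of 14 (median 0.024), with Ier2 at 0.25 and Egr3 at 0.21. The medians became, with the array spread as a term, -0.0076 for the regional transcription factors, -0.010 for the cortical list and -0.043 for the immediate early genes. Glucocorticoid response genes were higher for 9 of 13 (median 0.075), with Zbtb16 at 0.19 and Ddit4 at 0.18.

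**Figure D4:**
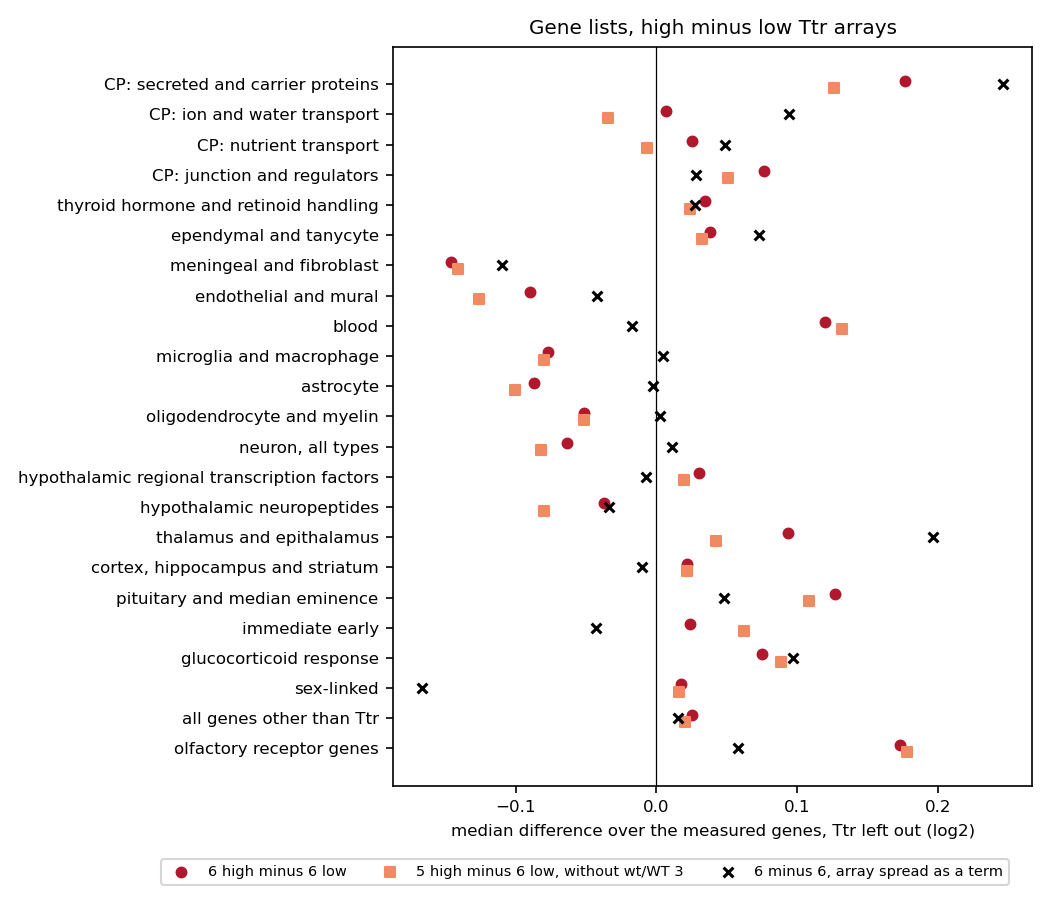
Median log2 difference between high and low Ttr arrays (x axis) over the measured genes of each list (y axis, CP for choroid plexus), Ttr left out, for 6 against 6 arrays, for 5 against 6 without wt/WT 3, and with the array spread as a term. The meningeal list is at -0.15, -0.14 and -0.11, and the astrocyte list at -0.087, -0.10 and -0.0023.

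Xist, the RNA that silences an X chromosome in female cells, was lower on every high array than on any low array. It was 5.93 on ko/WT 4 and between 10.31 and 10.43 on the other 5 high arrays, against 10.45 through 10.58 to 10.79 on the low arrays. The difference of -0.98 (SE 0.59) rested on ko/WT 4 and was -0.24 (SE 0.063, n = 5 and 6) without it. Of 4 measured sex-linked genes 2 were higher and 2 lower, with the Y-linked Kdm5d at 0.26 (SE 0.10). Kdm5d was at most 5.63, Uty at most 4.90 and Eif2s3y at most 4.32 on any array, and on ko/WT 4 they were 5.42, 4.40 and 3.59. Xist is set beside 0.597% of all genes lower without overlap. A pair of X-linked genes that escape silencing was picked from such genes after their values were seen, so its lack of overlap adds no support. Eif2s3x ran from 10.95 through 11.23 to 11.31 on the high arrays and from 11.33 through 11.45 to 11.65 on the low arrays, a difference of -0.31 (SE 0.076), and -0.27 without ko/WT 4. Kdm6a differed by -0.29 (SE 0.072), and by -0.25 without ko/WT 4.

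**Figure D5:**
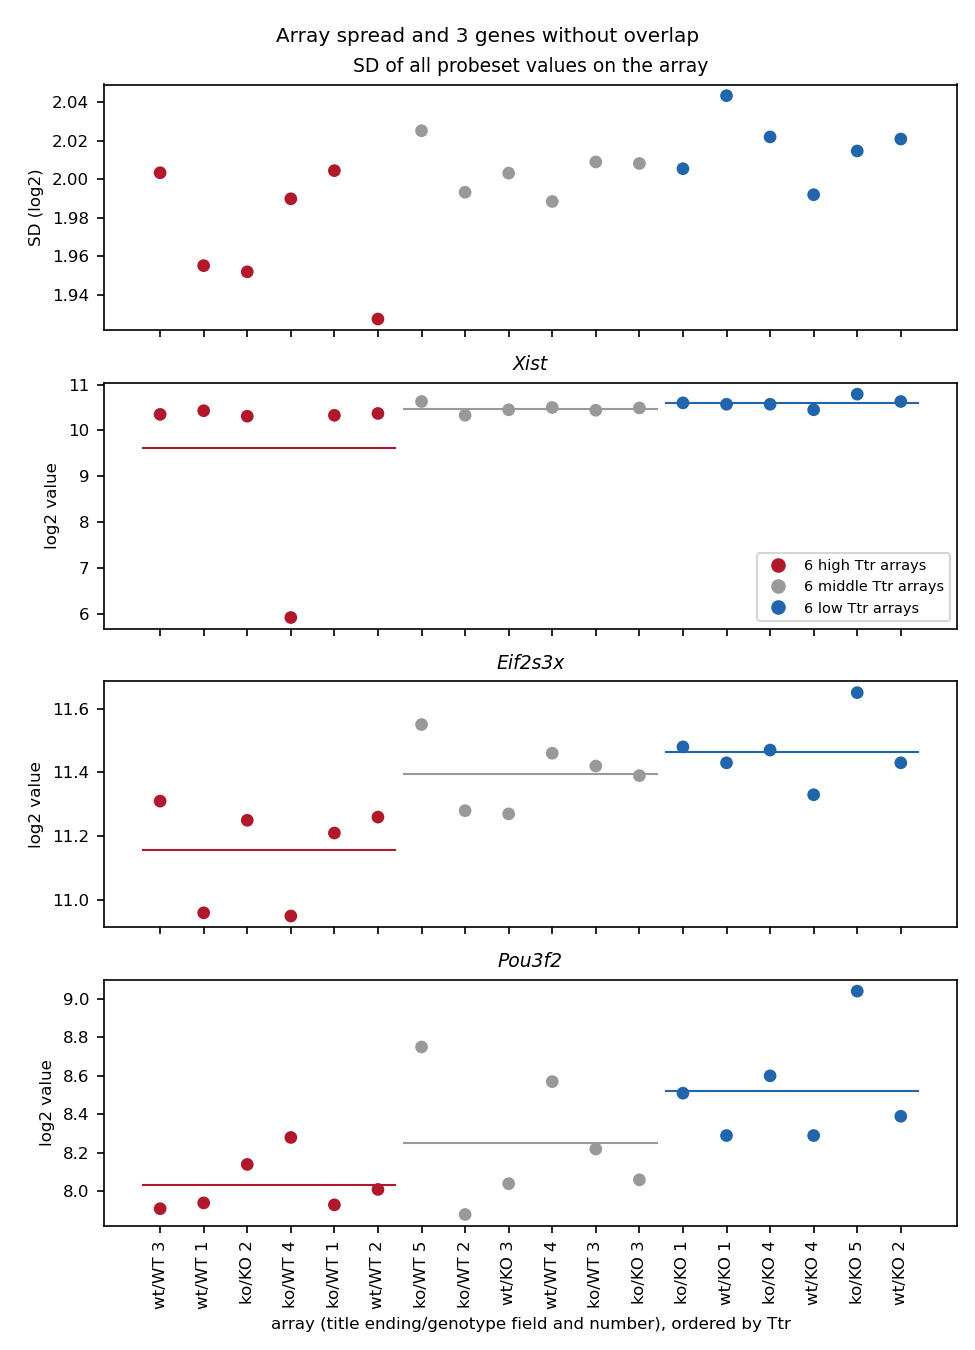
SD of all probeset values on each array and log2 levels of Xist, Eif2s3x and Pou3f2 (y axes) in the order of Ttr (x axis), with a line in the gene panels at the mean of each set of 6. Xist at 5.93 on ko/WT 4 stands far below the rest, and the smallest SDs belong to wt/WT 2, ko/KO 2 and wt/WT 1.

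The labels were not used to choose the arrays, so their composition could be tested. The high arrays had 1 field KO and 5 WT, and all 6 low arrays had the field KO (two-sided Fisher's exact test, p = 0.0152, and 0.0606 after Benjamini-Hochberg adjustment over 4 labels). Both groups had 3 arrays ending ko and 3 ending wt (exact p = 1.0). The first number in the title averaged 11 and 10.2 and the second 323.2 and 324.8 (two-sided exact permutation tests, p = 0.846 and 0.738). The contrast of high with low Ttr is thus also largely one between arrays with the field WT and arrays with the field KO, apart from ko/KO 2, and the 2 can hardly be told apart.

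Over all 18 arrays Ttr was 8.60 ± 0.61 (SD, n = 9) with the field KO and 9.78 ± 1.26 (SD, n = 9) with the field WT, given as a description since the same values ordered the arrays. With the field KO it ran from 8.01 through 8.43 to 10.08 and with the field WT from 8.74 through 9.48 to 12.80, so the groups overlapped. Without wt/WT 3 the means were 8.60 and 9.40 ± 0.60 (SD, n = 8), a difference of -0.80. By title ending the difference was -0.40, and 0.081 without wt/WT 3. In limma's fit of the field over all 19937 genes, added after seeing the data, 0 genes were called at an adjusted p under 0.05 (1386 at an unadjusted p under 0.05). Kcnj13 differed there by -0.099 and Kcne2 by -0.096, and without wt/WT 3 by 0.015 and 0.0015. Wfs1 itself, the gene the field names, was 8.25 with KO and 8.20 with WT, so these are differences between arrays labelled in that way.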

How the data were processed

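Per the labels' protocols, total RNA came from dissected hypothalami by Trizol and was labelled as whole-transcript target. The authors' deposited values, for which log2 is the scale they fit, cover 34760 probesets, from 1.11 to 14.54, taken as normalized by the authors since array medians lay between 7.10 and 7.19; the scale was read from the values. RMA and MAS5 are both named, per the submitters' processing notes, with no role or version. Scanner files and scan dates were not analysed here. The number of arrays limits the precision.

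The platform annotation gave 1 gene symbol for 21640 probesets, several for 1321 and none for 11799, and the brightest probeset of each of 19937 genes was used. Entrez identifiers matched RefSeq (GRCm38.p6) for 21553, with 0 symbols changed. Differences and SEs came from limma 3.58.1 (lmFit, eBayes; R 4.3.3) over all genes but Ttr, without covariates, and limma was tested on simulated data. A gene has no overlap when every array of one group lies above every array of the other. No p is given for a single gene of the high against low contrast, since a measured level chose its arrays.

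The arrays and 21 gene lists were chosen with earlier results of these data known. Named are all choroid plexus members, the 2 largest differences of every other list, and the 10 largest in each direction without overlap in no list, predicted genes and olfactory receptors passed over. Alternatives were array subsets, group sizes, rankings, normalizations, a filter on dim genes, probeset means and covariates. The fits with the array spread, without the 3 arrays of smallest spread and with Ttr as a continuous term, and the fit of the genotype field over 18 arrays, were added after seeing the data.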

Additional observations from a re-analysis of the deposited data

Results flagged for a closer look

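A sample far from the others of its group by Dixon's criterion was found in 19 of 232 sets of 6 arrays tested over the named genes (8.2%). This share cannot be set against a chance rate. Many of the genes were named for their differences, Ttr chose the arrays, and the sets share the same arrays. On wt/WT 3, the array highest in Ttr, 5 genes stood above the other high arrays. They were Ttr at 12.80, Kcnj13 at 7.45 (the others 6.34 to 6.54), Kl at 7.24, Car12 at 7.28 and Pcolce, a procollagen processing enhancer, at 7.53. The Ttr flag is counted among the 19 but is only a description, since Ttr ordered the arrays. On ko/WT 4, Xist was 5.93 (the others 10.31 to 10.43), Kdm6a 8.31, Ogn 6.28 and the signalling regulator gene Rgs2 8.77.

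Other high arrays that stood apart were wt/WT 2 with Gpr151 at 6.57 (the others 7.88 to 8.48) and Car2 at 10.26, and wt/WT 1 with Perp at 6.48 and Il13ra1 at 7.24. Among the low arrays, ko/KO 5 had Ngp at 4.81, Il13ra1 at 8.25 and the GABA-A receptor delta subunit gene Gabrd at 7.93. Alas2 was 9.08 on wt/KO 2 (the others 6.99 to 7.42), Car8 was 9.41 on wt/KO 1 (the others 7.99 to 8.12) and Map2 was 11.76 on ko/KO 1.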

How the results depend on the processing

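The share of genes called at an adjusted p under 0.05 was 0% among 6 and 6 arrays, and 0% to 14.8% on leaving out 1 array. It was 0.020% with the 3 highest against the 3 lowest arrays, 1.67% with arrays ranked by Kcnj13 and Kcne2, 0.552% without the dimmest 40% of genes and 0.035% with the genotype field as a term, where only ko/KO 2 separates field from Ttr group. The 4836 genes at an unadjusted p under 0.05 became 3572 to 7135 on leaving out 1 array, 2818 with 9 against 9 arrays, 2108 with 3 against 3, 3096 of 11962 without the dimmest 40%, 1894 without the 3 arrays of smallest spread, 1082 with the spread as a term and 3582 of 19936 with Ttr as a continuous term. The 197 genes without overlap became 235 to 1434 on leaving out 1 array, 300 without the single array highest in Ttr, 1 with 9 against 9 arrays, 2968 with 3 against 3, 485 with arrays ranked by Kcnj13 and Kcne2, and 691 without the 3 arrays of smallest spread. Fewer arrays overlap less by construction. The median choroid plexus difference of 0.054 was -0.024 without the dimmest 40% of genes. Over all genes the medians were -0.027 and -0.065 in the third and brightest of 4 equal sets by brightness. With the genotype field as a term, ko/KO 2 alone against the low arrays, the choroid plexus median was -0.017. The cause of these and the other changes was not tested. Array medians set at 0 gave 159 genes without overlap, and at an unadjusted p 1799 of 4766 genes were higher, against 2615 of 4836. Of 115 named genes other than Ttr, 40 changed sign under at least 1 of 24 alternatives. The 26 named genes without overlap are not among them. For the alternatives that only leave out arrays this holds by construction, and most of the 26 were named for having no overlap. Ranking by the mean of Ttr probesets was not run, since there is 1. No paired analysis was possible because the labels give no replicate numbers shared between groups.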

Other observations

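Ordering the arrays by the mean of Kcnj13 and Kcne2 gave another set. Its 6 highest arrays were wt/WT 3, wt/KO 4, wt/WT 4, ko/KO 2, wt/WT 1 and wt/WT 2, of which 4 belong to the high Ttr group, 1 to the middle and 1 to the low. Its 6 lowest arrays held 4 middle and 2 low Ttr arrays and no high one.

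Among genes without overlap and chosen after their values were seen, Gabrd, which encodes the delta subunit of extrasynaptic GABA-A receptors, ran from 8.46 through 8.57 to 8.73 on the high arrays and from 7.93 through 8.26 to 8.34 on the low arrays, a difference of 0.35 (SE 0.073). Rgs2, a regulator of G-protein signalling, ran from 8.63 through 8.65 to 8.77 against 8.78 through 8.98 to 9.06, a difference of -0.28 (SE 0.057). With the array spread as a term these differences were 0.39 and -0.25. Over all genes, 0.391% were higher and 0.597% lower without overlap.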
